A study of Sus scrofa with 64 samples.

Results

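The genes of the porcine major histocompatibility complex (MHC) class II, named SLA for swine leukocyte antigen, were followed over 16 tissues of the pig. The 7 listed genes were SLA-DRA, SLA-DQA1, SLA-DQB1, SLA-DMA, SLA-DMB, SLA-DOB and CD74, and they were found on the array by the gene symbol that the platform annotation gives to each probe set (called probe here), without use of any measured value. Of these genes, 6 were named by at least 1 probe, among 6790 genes named on the array, and they carried 7 of the 23935 probes tested, because SLA-DMA had 2 probes. SLA-DOB was not analysed here. By RefSeq (assembly Sscrofa11.1), the SLA genes of the list lie on the same chromosome in the order SLA-DRA, SLA-DQA1, SLA-DQB1, SLA-DOB, SLA-DMB and SLA-DMA, and CD74 lies on another chromosome.

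The tissues came from 4 untreated young pigs that were housed together: a Large White male of 87 days and 38.8 kg, a Large White female of 87 days and 36.2 kg, an Iberian female of 89 days and 32.8 kg, and an Iberian male of 89 days and 25.4 kg. Total RNA of each tissue of each animal was hybridised to an Affymetrix porcine array of its own, which gave 64 arrays, 4 for each tissue. Each combination of breed and sex was thus a single animal, and the 16 arrays of an animal were not independent animals. They covered blood, liver, the epithelium of stomach and ileum, fat from back and abdomen, the muscles diaphragm and Biceps femoris, the thyroid, cortex and medulla of the adrenal gland, the anterior (adenohypophysis) and posterior (neurohypophysis) lobes of the pituitary, and pineal gland, hypothalamus and olfactory bulb, which are called the brain tissues here.

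Class II molecules are pairs of an alpha and a beta chain that present peptides from engulfed proteins to CD4+ T cells. They are carried mostly by B cells, dendritic cells and macrophages, their transcription depends on the co-activator CIITA, and interferon gamma induces them in many other cells. In the brain, microglia are the resident cells best known for making them.

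Values were log2 expression levels normalised by the authors, and all differences below are on the log2 scale, with folds as the antilog. The number of arrays limited the precision. Among probes of known tissue markers, 28 of 32 were over 2 log2 units higher in their own tissue, and each of the 12 tissues or tissue pairs with such a probe had at least 1. The exceptions were OXT and HCRT in the hypothalamus, 1 probe of LEP in fat and the haemoglobin gene HBB, with a mean of 6.69 in blood against 7.53 elsewhere. Another LEP probe was over 2 log2 units higher, with a mean of 5.94 in fat against 2.91 elsewhere. No marker probe was at hand for the olfactory bulb, and none was chosen for the neurohypophysis. In the Large White male, the array labelled pineal gland stood apart from its tissue, since it lay nearest to the hypothalamus of the same animal and its level of SAG, a photoreceptor and pineal protein, was only 5.09. The Biceps femoris array of the Iberian female was also far from its tissue. Every call on a class II probe given below was kept when either of these arrays was left out.

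Class II expression was highest in the ileum. SLA-DRA, the alpha chain of the DR molecule, had levels of 11.84 in the Large White male, 11.81 in the Large White female, 11.59 in the Iberian female and 11.73 in the Iberian male. Its mean of 11.74 ± 0.11 (SD, n = 4) was 2.52 ± 0.31 (SE) above the other tissues, a 5.74-fold difference (limma adjusted p = 1.1e-09). For SLA-DQA1, the alpha chain of DQ, the ileum of the same animals in the same order gave 11.64, 11.77, 11.33 and 11.59, and the difference was 2.70 ± 0.28 (6.52-fold, limma adjusted p = 9.5e-12). All 4 ileum arrays lay above all 60 arrays of the other tissues for both genes, with gaps of 1.05 for SLA-DRA and 0.76 for SLA-DQA1. SLA-DQB1, the beta chain of DQ, had levels of 11.87, 11.66, 11.54 and 11.38 and was 2.54 ± 0.25 higher (limma adjusted p = 2.4e-12). In such bulk samples, fewer cells of a type and less RNA per cell cannot be told apart.

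**Figure D1:**
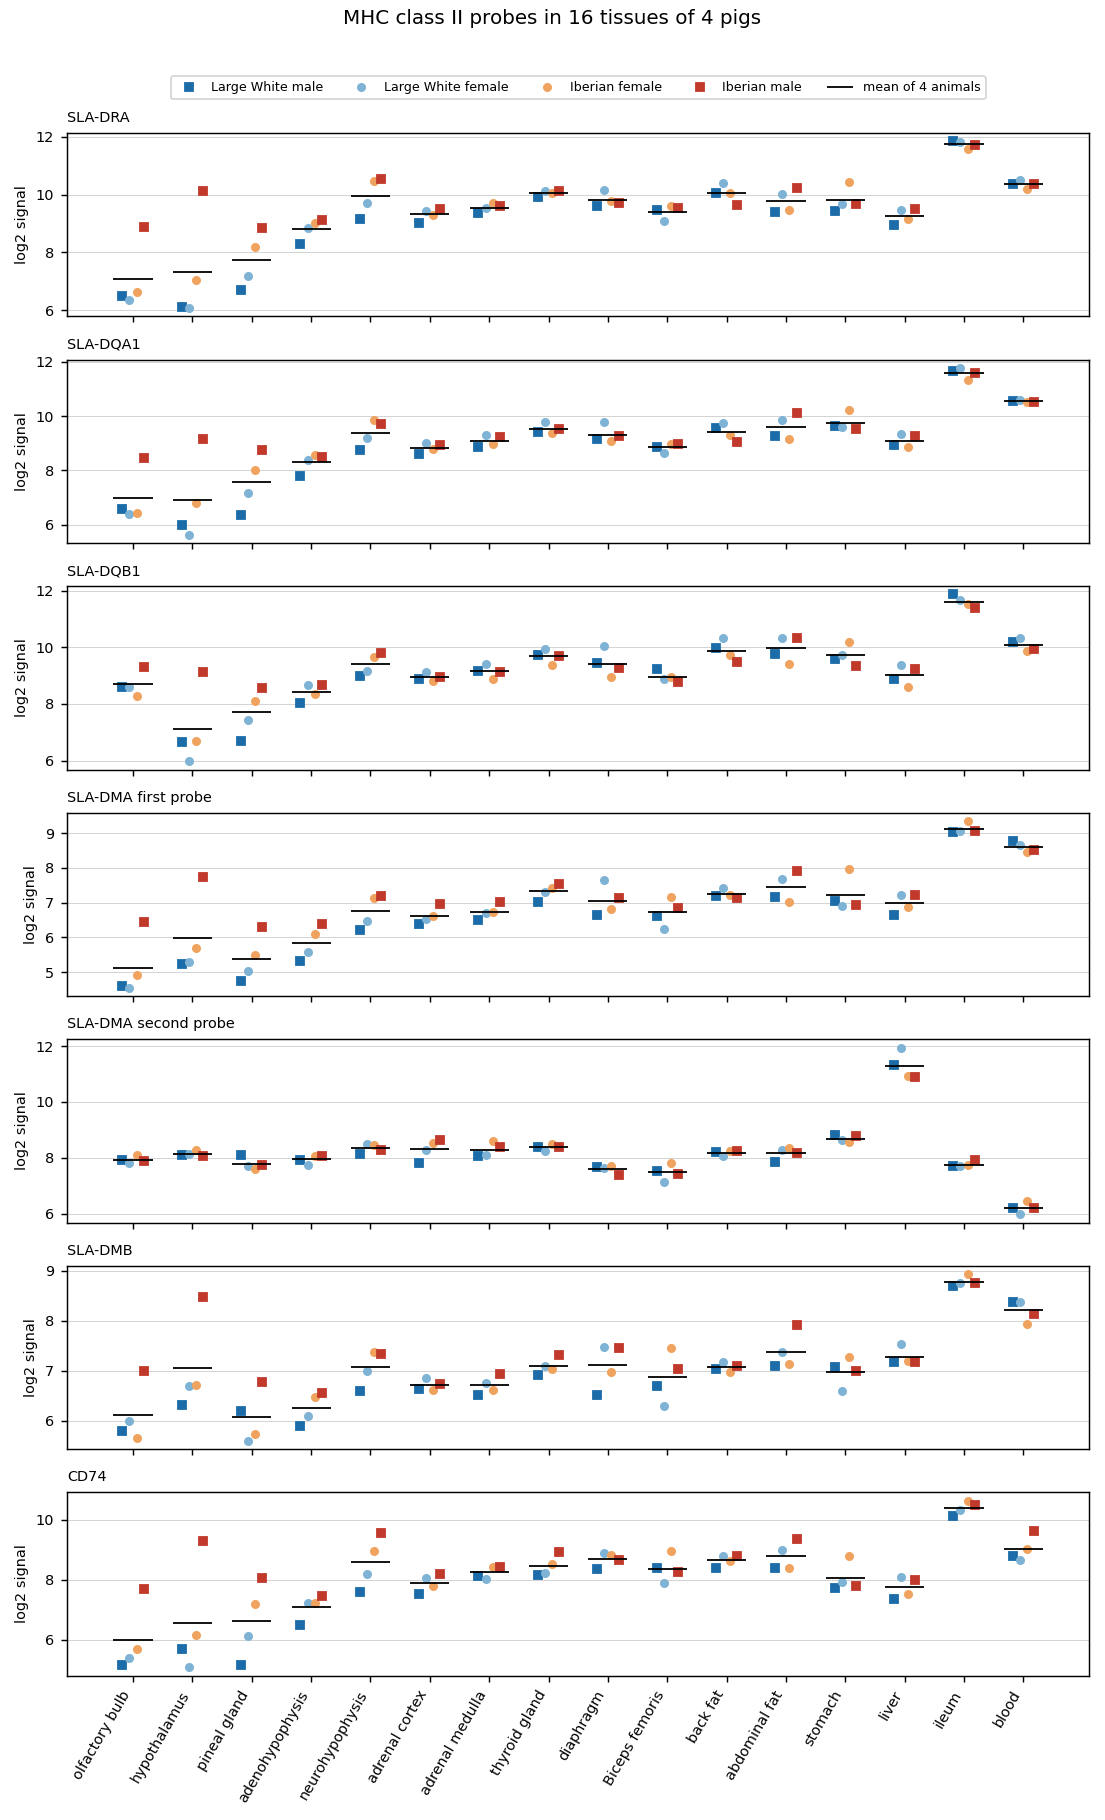
Log2 expression level (y axis of each panel) of the 7 class II probes in the 16 tissues, where each point is 1 array of 1 animal and the bar is the mean of the 4 animals. The ileum arrays lie above all others for 6 probes, the second SLA-DMA probe is highest in liver, and the Iberian male stands above its tissue in olfactory bulb, hypothalamus and pineal gland.

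CD74 codes for the invariant chain, which fills the groove of newly made class II molecules and guides them to the endosome. Its ileum levels were 10.14, 10.32, 10.64 and 10.49, again above all other arrays, with a gap of 0.52 and a difference of 2.48 ± 0.31 (5.57-fold, limma adjusted p = 2e-09). SLA-DMA and SLA-DMB form the DM molecule, which takes out the remnant of the invariant chain and helps peptides to bind. SLA-DMB had ileum levels of 8.70, 8.75, 8.93 and 8.76 and was 1.85 ± 0.19 higher there (limma adjusted p = 4.8e-12). The first SLA-DMA probe had 9.04, 9.06, 9.35 and 9.07 and was 2.39 ± 0.23 higher (limma adjusted p = 3.6e-13). The gaps of the DM genes to the nearest other array were small, at 0.22 for SLA-DMB and 0.27 for the first SLA-DMA probe. Thus 6 of 7 probes were higher in ileum, where 23.4% of all probes were, and 1 was lower, where 29.5% were. The median difference of the 7 probes was 2.48, against -0.09 over all probes. A non-overlap of the 4 ileum arrays above the other arrays was seen for 2.21% of all probes.

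Blood came next for the same 6 probes. SLA-DRA was measured there at 10.35, 10.49, 10.19 and 10.38 and SLA-DQA1 at 10.55, 10.58, 10.50 and 10.51, so that the 4 animals lay close together. Blood was above the other tissues by 1.59 ± 0.28 for SLA-DQA1 (3-fold, limma adjusted p = 1.9e-06), by 1.83 ± 0.23 for the first SLA-DMA probe (3.56-fold, limma adjusted p = 3.3e-10) and by 1.24 ± 0.19 for SLA-DMB (2.36-fold, limma adjusted p = 8.2e-08). The smaller differences of SLA-DRA (1.04), CD74 (1.01) and SLA-DQB1 (0.91) also passed the test, with limma adjusted p of 0.0025, 0.0033 and 0.0012. With 6 probes higher and 1 lower, the shares of all probes called in blood were 43.5% and 35%, and the median of the 7 differences was 1.04 against 0.11 over all probes. Between ileum and blood directly, 6 probes were higher in ileum (32.3% of all probes) and 0 were lower (40.5%). The difference was 1.39 for SLA-DRA (limma adjusted p = 0.0035), 1.37 for CD74 (limma adjusted p = 0.004) and 1.53 for SLA-DQB1 (limma adjusted p = 0.00013). It was 0.53 for the first SLA-DMA probe, which did not pass (limma adjusted p = 0.12). After quantile normalisation 2 probes were higher in ileum than in blood.

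Markers of immune cells were higher in these 2 tissues for some lists and split for others. Of all probes, 23.4% were higher and 29.5% lower in ileum, and 43.5% and 35% in blood. The B cell list had only 2 of its 14 genes on the array, CD79B of the B cell receptor and the adaptor BLNK, while the defining genes MS4A1 and CD79A had no named probe. Both were higher in ileum and in blood. The mean level of the 2 probes was 8.67 to 9.88 in the 4 ileum arrays, 6.70 to 7.43 in blood and 5.34 to 6.07 in stomach. Below ileum the 2 probes were ordered differently. BLNK averaged 8.06 in stomach and 7.93 in blood, and CD79B 3.55 and 6.12. By limma, BLNK was also higher in stomach (1.82), thyroid gland (1.27) and hypothalamus (0.94). CD79B was lower in thyroid gland (-0.8) and hypothalamus (-0.87). Of 16 T and NK cell probes, 13 were higher in ileum (median difference 2.17) and 16 in blood (3.17). Of 7 plasma cell probes, 5 were higher in ileum (1.91) and 4 in blood (0.76). Among them, a probe of SDC1 called in ileum (mean 7.53) was higher still in stomach (7.87) and liver (8.16). XBP1 of the same list was lower in blood (-2.05). Of 9 dendritic cell probes, 4 were higher in ileum (0.33) and 7 in blood (0.87). The macrophage and monocyte list was split, with 8 of 19 probes higher and 8 lower in ileum, and 11 higher and 6 lower in blood. None of the 17 endothelial probes was higher in ileum, where 13 were lower, whereas 9 were higher and 7 lower in blood. The part of these cell types in the class II differences was not tested.

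Below ileum and blood, 10 tissues formed a broad middle range without a firm order. In it, SLA-DRA ran from 9.27 in liver to 10.05 in thyroid gland, SLA-DQA1 from 8.84 in adrenal cortex to 9.74 in stomach and CD74 from 7.75 in liver to 8.79 in abdominal fat. SLA-DMB ran from 6.71 in adrenal cortex to 7.37 in abdominal fat, and its hypothalamus mean of 7.05 also lay inside this range. When the 16 tissue means of a probe were put in order, 15 pairs of neighbours could be compared, with an error pooled over all 16 tissues. The scatter within the brain tissues is part of this error. For SLA-DRA in ileum minus blood it was 0.43 (SE), and 0.22 without the 3 brain arrays of the Iberian male, a choice made after seeing the data. The whole order was not tested again without them. For SLA-DRA, SLA-DQA1, SLA-DQB1 and CD74, the step from ileum to blood was the only 1 that passed the test. For the first SLA-DMA probe it was the step from blood to abdominal fat (1.16, limma adjusted p = 0.00087), and for SLA-DMB both of these steps passed. The difference between the highest and lowest tissue mean was 4.65 for SLA-DRA (25.1-fold), 4.68 for SLA-DQA1 (25.7-fold), 4.50 for SLA-DQB1 (22.6-fold), 4.41 for CD74 (21.3-fold), 4.01 for the first SLA-DMA probe (16.1-fold) and 2.70 for SLA-DMB (6.51-fold). All 7 probes differed among tissues, as did 98.2% of all probes.

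**Figure D2:**
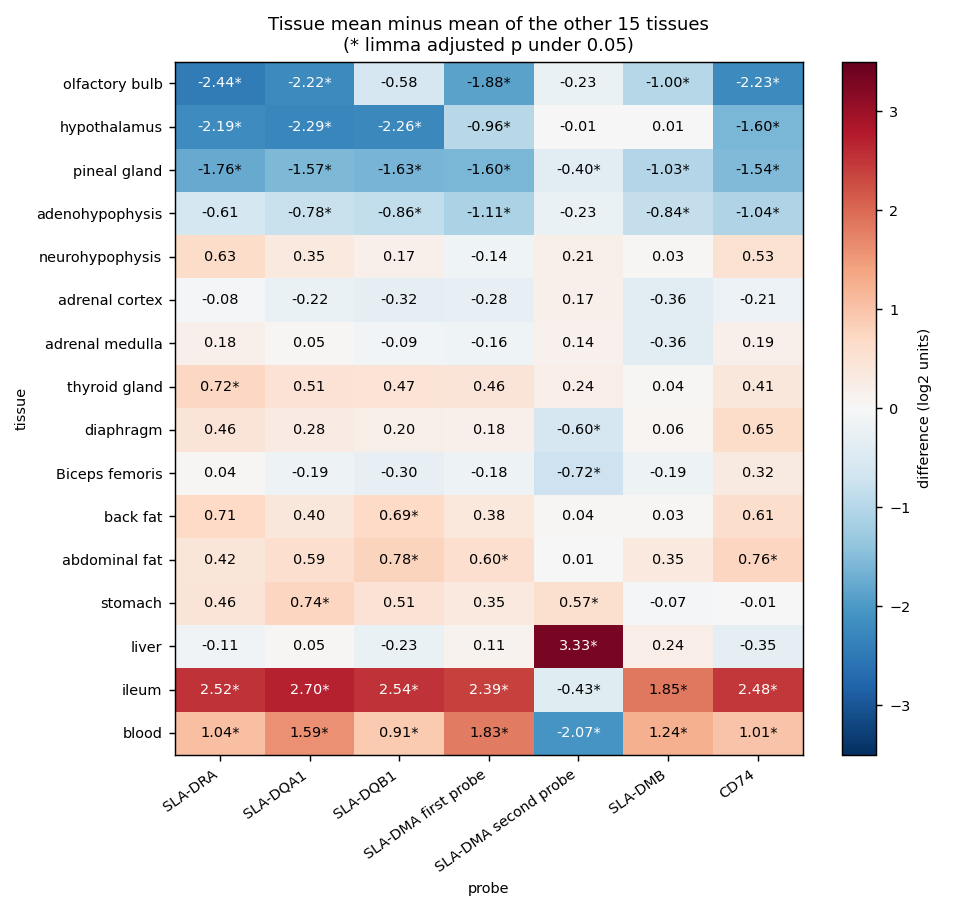
Log2 difference between each tissue (rows) and the mean of the other 15 tissues for the 7 probes (columns), with red for higher, blue for lower and an asterisk where the limma adjusted p was under 0.05. Ileum and blood are red for 6 probes, the olfactory bulb, hypothalamus and pineal gland are mostly blue, and the second SLA-DMA probe has its own pattern with liver highest.

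The fat depots and stomach stood at the upper edge of the middle range for some genes. In abdominal fat, 3 of 7 probes were higher than in the other tissues (16.9% of all probes), namely SLA-DQB1 (0.78), CD74 (0.76) and the first SLA-DMA probe (0.60). In back fat, SLA-DQB1 was higher (0.69, with 19% of all probes called higher). In stomach, SLA-DQA1 was higher (0.74) and so was the second SLA-DMA probe (0.57), where 18.2% of all probes were. In thyroid gland, SLA-DRA alone was higher (0.72, against 23.5% of all probes). None was lower in abdominal fat (22.4% of all probes), back fat (23.1%), stomach (21.3%) or thyroid gland (30%). The stomach value rested on unequal animals: SLA-DQA1 read 9.63, 9.60, 10.21 and 9.54, so that the Iberian female was alone above 10. In the same animal's stomach the mean of the T and NK cell list was 5.96 against 4.64 to 5.20 in the others, and that of the interferon gamma list 6.84 against 5.67 to 5.89. The part of these lists in the value was not tested. These counts depended on the animals used. Without the Iberian male, 5 probes were higher in back fat, 5 in stomach and 4 in thyroid gland, and leaving out any of the other 3 animals took the calls in back fat and thyroid gland to 0 and in stomach to 1. In abdominal fat 1 probe was higher without the Large White male and 0 without the Large White female.

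Related tissues were also compared directly. Ileum was above stomach for 6 of 7 probes (17.3% of all probes higher), by 1.93 ± 0.43 for SLA-DRA and 2.33 ± 0.43 for CD74, and 1 probe was lower (18% of all). By limma, 0 probes passed between back fat and abdominal fat (0.288% of all probes higher, 0.305% lower), between adrenal medulla and cortex (0.999% and 0.00418%) or between diaphragm and Biceps femoris (12.1% and 13.1%), and 0 did at an unadjusted p under 0.05. The SLA-DRA difference was 0.27 ± 0.43 between the fat depots, 0.24 ± 0.43 between the parts of the adrenal gland and 0.39 ± 0.43 between the muscles, errors that leave room for sizeable differences. The pituitary lobes differed, with 6 of 7 probes lower in the adenohypophysis (10.3% of all probes) and 0 higher (9.46%). SLA-DRA had 8.28, 8.84, 9.00 and 9.12 in the adenohypophysis and 9.15, 9.70, 10.48 and 10.54 in the neurohypophysis. Every animal thus had less in the anterior lobe, although the lobes nearly met, at 9.12 and 9.15. For the first SLA-DMA probe they overlapped, with 5.33 to 6.39 in the anterior and 6.22 to 7.19 in the posterior lobe. The difference was -1.16 ± 0.43 for SLA-DRA (limma adjusted p = 0.048) and -1.47 ± 0.43 for CD74 (limma adjusted p = 0.0094). The 6 calls fell to 2 without the Large White male, 2 without the Large White female and 0 without the Iberian female. The macrophage and monocyte list, which holds genes that microglia also use, had means of 4.72 to 4.87 in the anterior and 5.25 to 5.66 in the posterior lobe. Anterior lobe hormone markers, at 12.82 to 13.26 in the adenohypophysis, still averaged 6.67 to 9.81 in the neurohypophysis arrays. The part of either in the class II difference was not tested. Against all other tissues, 5 of 7 probes were lower in the adenohypophysis (23.9% of all probes), with differences of those 5 from -1.11 to -0.78. In the neurohypophysis, adrenal cortex and adrenal medulla 0 of 7 passed limma's test against all other tissues, also at an unadjusted p under 0.05 (20.6% of all probes higher and 28.5% lower in neurohypophysis, 18.9% and 20% in adrenal cortex, 19.9% and 23.8% in adrenal medulla).

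For every probe but the second SLA-DMA probe, the lowest tissue mean lay in the olfactory bulb, hypothalamus or pineal gland. These tissues were not all lowest for every probe. SLA-DMB had a mean of 7.05 in the hypothalamus, inside the middle range. SLA-DQB1 had 8.69 in the olfactory bulb, against 8.43 in the adenohypophysis. The first SLA-DMA probe had 5.99 in the hypothalamus, against 5.85 in the adenohypophysis. Within the brain tissues the animals were far apart. SLA-DRA was 6.10 in the Large White male, 6.07 in the Large White female, 7.04 in the Iberian female and 10.11 in the Iberian male in the hypothalamus. In the olfactory bulb the values in the same order were 6.48, 6.35, 6.64 and 8.89. In the pineal gland they were 6.69, 7.18, 8.18 and 8.86. The Iberian male was thus highest in each, and its hypothalamus lay within the range of the peripheral tissues. For CD74 the hypothalamus gave 5.71, 5.09, 6.18 and 9.31, the olfactory bulb 5.16, 5.39, 5.70 and 7.71, and the pineal gland 5.16, 6.13, 7.20 and 8.06. SLA-DQA1 in the hypothalamus was 6.01, 5.64, 6.81 and 9.15, and SLA-DQB1 was 6.65, 5.98, 6.70 and 9.13. The same animal was highest for both chains of DQ.

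Tested over all 4 animals, the olfactory bulb was below the other tissues for 5 of 7 probes (30.8% of all probes), the hypothalamus for 5 (34.1%) and the pineal gland for 7 (28.9%), and 0 were higher in any of them (20.5%, 21% and 21.6% of all probes). The difference of SLA-DRA was -2.44 ± 0.31, -2.19 ± 0.31 and -1.76 ± 0.31 in the 3 tissues, in this order. The median differences of the 7 probes were -1.88, -1.60 and -1.57, against -0.11, -0.14 and -0.09 over all probes. When the 3 brain arrays of the Iberian male were left out, a choice made after seeing the data, the differences of SLA-DRA grew to -2.94, -3.03 and -2.02, and 6, 6 and 7 probes were lower. SLA-DQB1 in the olfactory bulb then passed the test (-0.74, limma adjusted p = 0.0016), as did SLA-DMB in the hypothalamus (-0.41, limma adjusted p = 0.03). SLA-DQB1 behaved differently from SLA-DQA1 between these brain parts, with 8.61, 8.59, 8.28 and 9.29 in the olfactory bulb, all above its levels of 5.98 to 6.70 in the hypothalamus of the Large White animals and the Iberian female. Olfactory bulb minus hypothalamus was 1.58 ± 0.35 for SLA-DQB1 (limma adjusted p = 0.00098) and 0.07 ± 0.39 for SLA-DQA1 (limma adjusted p = 0.96). In this pair 1 probe was higher and 1, SLA-DMB (-0.94), was lower, as were 5.54% and 6.28% of all probes.

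**Figure D3:**
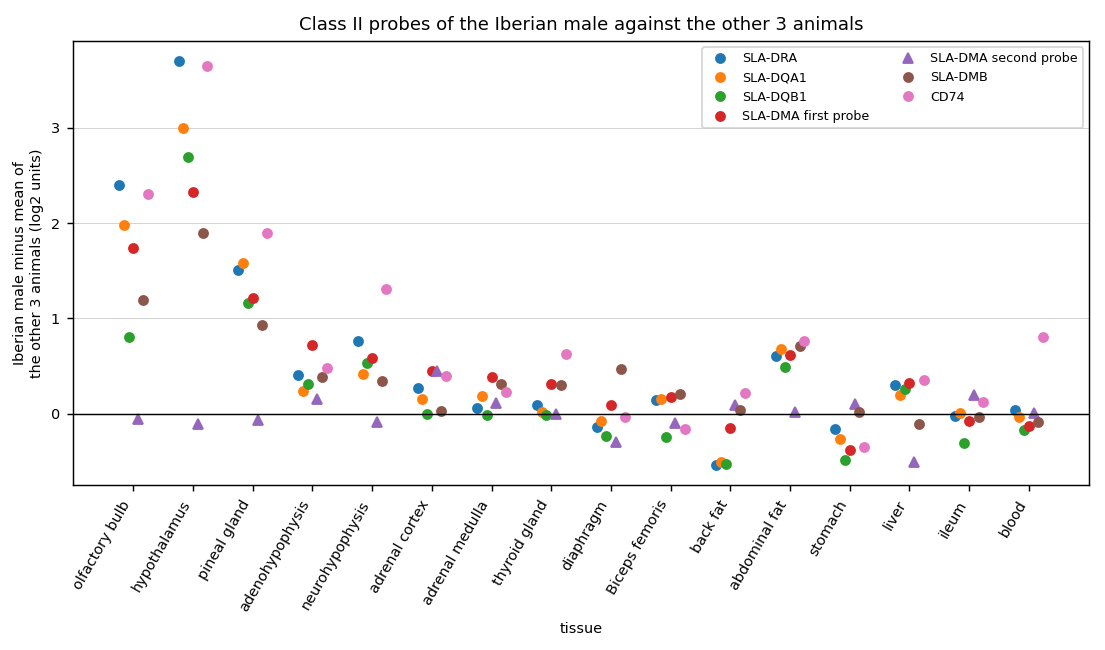
Level in the Iberian male minus the mean of the other 3 animals (y axis, log2), by tissue, with 1 point for each class II probe. The 6 probes other than the second SLA-DMA probe lie between 0.80 and 3.70 in the olfactory bulb, hypothalamus and pineal gland, and the second SLA-DMA probe stays near 0 there.

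The Iberian male was high for 6 of the 7 probes. In the hypothalamus it was 1.90 to 3.70 above the mean of the other 3 animals (median of the 6 probes 2.84), in the olfactory bulb 0.80 to 2.40 (1.86) and in the pineal gland 0.93 to 1.90 (1.36). The pineal mean includes the Large White male array that stood apart from its tissue. That array was the lowest there for SLA-DRA (6.69), SLA-DQA1 (6.36), SLA-DQB1 (6.69), CD74 (5.16) and the first SLA-DMA probe (4.75), but not for SLA-DMB (6.2). As folds, SLA-DRA was 13-fold, CD74 12.6-fold and SLA-DQA1 7.98-fold higher in the hypothalamus of the Iberian male. In ileum the same 6 differences were -0.31 to 0.12 and in stomach -0.49 to 0.02. In the neurohypophysis they were 0.34 to 1.31 and in abdominal fat 0.49 to 0.76. The Iberian male was over 1 log2 unit above each other animal for 6 of 7 probes in the hypothalamus (0.861% of all probes), 5 of 7 in the olfactory bulb (0.292%) and 0 of 7 in the pineal gland (0.171%). It was above each other animal by any margin for 6 of 7 probes in all 3 tissues (21.7%, 22% and 20.1% of all probes, in this order). These differences concern 1 animal and are given as a description, with no p. Over all probes, each of the 3 arrays lay nearest to the array of the Iberian female of the same tissue. The hypothalamus array held 206 probes over 1 log2 unit above each other animal, against 22 to 137 in the other 15 tissues, and 2 of the 3 probes of hypothalamic markers (PMCH, OXT and HCRT) were among them. The part of a difference in the sampled piece of hypothalamus was not tested.

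Some other immune genes were also high on these arrays, most of them in the hypothalamus. The chemokine CXCL9, which interferon gamma induces, had 4.70, 3.67, 4.69 and 9.96 in the hypothalamus, 4.80, 4.43, 4.88 and 8.68 in the olfactory bulb and 4.61, 4.32, 5.34 and 8.28 in the pineal gland. The interferon-induced GTPase GBP1 had 7.06, 6.87, 7.57 and 10.46 in the hypothalamus. TAP1, which carries peptides for class I loading, had 6.35, 6.51, 6.68 and 8.91, and the immunoproteasome subunit PSMB8 had 5.92, 5.70, 6.36 and 8.40. In each of these the Iberian male was alone at the top. In its hypothalamus, 15 of 18 interferon gamma probes, 12 of 21 MHC class I probes, 11 of 16 T and NK cell probes, 15 of 19 macrophage and monocyte probes and both B cell probes were above all 3 other animals. Over 1 log2 unit above each were 6, 8, 6, 4 and 1 of them, respectively. Of the B cell probes, BLNK had 6.66, 6.87, 7.14 and 8.28 in the hypothalamus. CD79B had only 3.02, 3.14, 3.23 and 3.35, a low level, since 25% of all probes had a mean under 4.04. The dendritic cell list had 6 of 9 probes above all 3 others, the plasma cell list 4 of 7 and the endothelial list 6 of 17, with 0, 1 and 0 over 1 log2 unit above. In the olfactory bulb 12 of 18 interferon gamma, 12 of 21 MHC class I, 8 of 16 T and NK cell, 10 of 19 macrophage and monocyte and 1 of 2 B cell probes were above all 3 others, with 3, 3, 1, 2 and 0 over 1 log2 unit above. In the pineal gland the counts were lower, at 8, 9, 8, 3 and 0 of these lists, with 1, 1, 1, 0 and 0 over 1 log2 unit above. The shares of all probes above all 3 others were 21.7% in hypothalamus, 22% in olfactory bulb and 20.1% in pineal gland. In abdominal fat of the Iberian male (25%) they were 13 of 19 macrophage and monocyte, 9 of 16 T and NK cell, 7 of 7 plasma cell and 2 of 2 B cell probes. There, interferon gamma had 5 of 18, MHC class I 9 of 21, dendritic cell 4 of 9 and endothelial 2 of 17. In the hypothalamus the mean of the T and NK cell list was 4.98 against 4.22 to 4.25, that of the macrophage and monocyte list 5.78 against 5.19 to 5.34, and that of the endothelial list 4.95 against 4.83 to 4.87. The part of any cell type or of interferon gamma in the class II levels of this animal was not tested.

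The probes of SLA-DMA did not share a pattern. The first followed the other class II genes, whereas the second was highest in liver, with 11.33, 11.95, 10.94 and 10.89, and lowest in blood, with 6.22, 5.98, 6.44 and 6.22. Liver was above the other tissues by 3.33 ± 0.11 (10.1-fold, limma adjusted p = 3.3e-31), with a gap of 2.09 to the nearest other array, and blood stood at -2.07 ± 0.11 (4.21-fold lower, limma adjusted p = 2.3e-22), with a gap of 0.70. In liver it was the only 1 of the 7 probes that was higher (20.5% of all probes). Non-overlap above the other arrays in liver was seen for 2.88% of all probes, and below them in blood for 5.03%. In ileum it was lower (-0.43, limma adjusted p = 0.0015), and it was also lower in diaphragm (-0.60, with 27.7% of all probes lower) and Biceps femoris (-0.72, with 30.5%), where no probe was higher (22% and 34.8% of all probes). Over the 16 tissue means its correlation with the other 6 probes was -0.18 to -0.09, and with the first SLA-DMA probe it was -0.16. Which transcript the second probe measures was not settled, and the 2 probes were kept apart throughout.

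**Figure D4:**
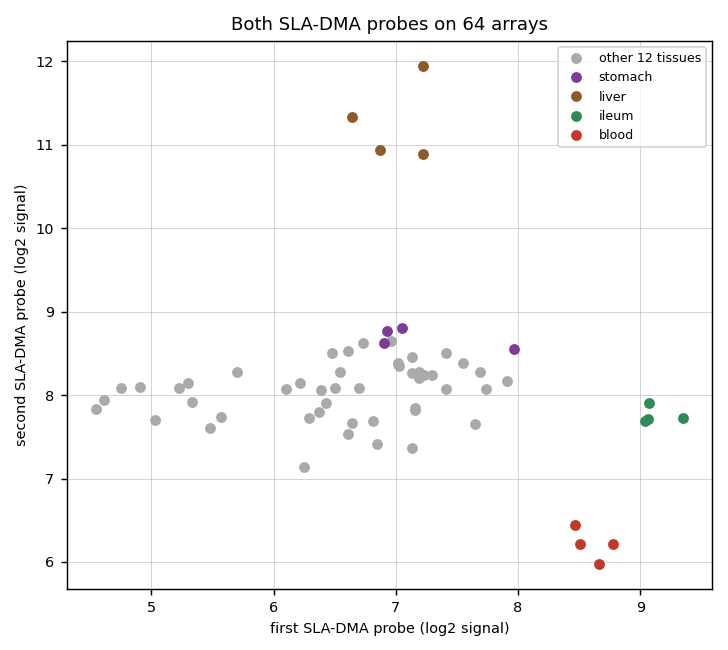
Level of the second SLA-DMA probe (y axis, log2) against the first (x axis, log2), 1 point for each of the 64 arrays, with the stomach, liver, ileum and blood arrays marked. Liver arrays stand at 10.89 to 11.95 on the second probe without a rise on the first, and blood arrays are high on the first and lowest on the second.

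The other 6 probes moved closely together. Their pairwise correlations over the 16 tissue means were 0.76 to 0.98 (15 pairs, highest for SLA-DRA with SLA-DQA1). For the deviations of the 64 arrays from their tissue mean they were 0.67 to 0.97, and 0.45 to 0.91 without the olfactory bulb, hypothalamus and pineal gland (52 arrays). These are descriptions, since the same animals and arrays stand behind all points. SLA genes are highly polymorphic, and the effect of allelic differences between animals on hybridisation was not tested.

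The wider class II pathway was followed by a list of 31 other genes, of which 18 had a probe (29 probes). Where a gene had several, the probe with the highest mean level is given. In ileum 20 of the 29 probes were higher and 1 lower (median difference 0.77), against 23.4% and 29.5% of all probes. In blood 21 were higher and 6 lower (0.70), against 43.5% and 35% of all probes. Among the remaining chains, SLA-DRB1, the beta chain of DR, had ileum levels of 11.45, 11.57, 11.06 and 11.47 (2.67 higher, limma adjusted p = 3.5e-11) and hypothalamus levels of 6.01, 6.06, 6.40 and 9.49. It was thus close to SLA-DRA in both respects. SLA-DOA, a chain of the DO molecule that restrains DM, was 1.54 higher in ileum and 1.19 higher in blood. The master regulator CIITA was ordered differently, with 6.53, 7.01, 7.20 and 6.92 in ileum (0.77 higher, limma adjusted p = 9.3e-08) and 7.55, 7.62, 7.75 and 8.30 in blood (1.72 higher, limma adjusted p = 3.5e-19). In the hypothalamus CIITA was 5.39, 5.56, 5.75 and 6.0, so that the Iberian male was highest by a small margin only. Among the enzymes that prepare antigen and invariant chain, CTSS was 1.93, CTSH 2.10 and the thiol reductase IFI30 3.12 higher in ileum. LGMN (-2.94), CTSB (-1.45) and CTSD (-1.38) were lower in blood. The costimulatory receptor CD40 was 2.98 higher in ileum, and CD86 was higher in both ileum (1.97) and blood (1.98).

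Genes whose 16 tissue means were most like those of the class II genes were sought among 6586 other genes, by the correlation with the mean profile of the 6 genes. The highest were SLA-DRB1 (r = 0.978), SLA-3 (0.968), SLA-2 (0.939), IFI30 (0.913), POLD4 (0.888), CDK2 (0.887), CKS2 (0.885), SLA-DOA (0.88), KNSTRN (0.878) and DEK (0.874). SLA-2 and SLA-3 are class I genes of near-identical sequence, and cross-hybridisation between them was not tested. All 10 were highest in ileum and lowest in the olfactory bulb or hypothalamus. The profile used the second SLA-DMA probe, which has the higher mean level. With the first in its place, SLA-DRB1 (0.98), SLA-DOA (0.942) and SLA-3 (0.942) led, and PHF11, MXD3, PSMB8 and CDC25B entered the 10.

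**Figure D5:**
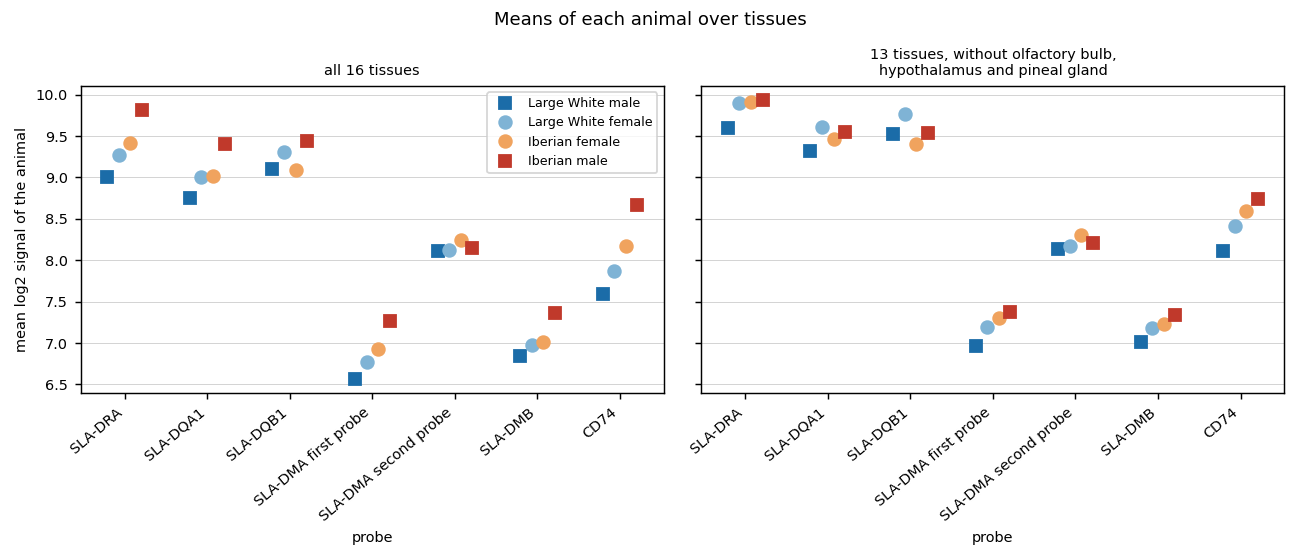
Mean log2 level (y axis) of each class II probe (x axis) in the 4 animals, 1 point per animal, over all 16 tissues (left) and over the 13 tissues without olfactory bulb, hypothalamus and pineal gland (right). The Iberian male is highest for 6 probes on the left, and for SLA-DRA and CD74 the animals lie closer together on the right.

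Between animals, CD74 differed most. Its mean over the 16 tissues was 7.59 in the Large White male, 7.87 in the Large White female, 8.17 in the Iberian female and 8.67 in the Iberian male. Over the 13 tissues without olfactory bulb, hypothalamus and pineal gland it was 8.11, 8.41, 8.59 and 8.74, so the order was kept and the distances were smaller. SLA-DRA had 9.01, 9.27, 9.42 and 9.82 over all tissues and 9.60, 9.90, 9.91 and 9.94 over the 13. Both Large White animals were below both Iberian animals for 6 of 7 probes (24.5% of all probes), and for 5 of 7 over the 13 tissues (23.9%), a share to be read with 2 animals in each breed, where the exact two-sided permutation p cannot be under 0.333. By the z-score of the breed difference over the arrays, the Large White minus Iberian difference of CD74 was -0.69 (z = -4.05, adjusted p = 0.0075, 4 animals, permutation p 0.333) and CD74 was the only 1 of the 7 probes called (1.01% of all probes). SLA-DRA, with -0.48, was not called (adjusted p = 0.27). Without the olfactory bulb, hypothalamus and pineal gland the CD74 difference was -0.41 and was no longer called (adjusted p = 0.64), and without the 3 brain arrays of the Iberian male it was -0.47 (adjusted p = 0.3). With the natural logarithm of the values, after the further logarithm that the methods name, CD74 was not called either (z = -2.95, adjusted p = 0.22). Leaving out 1 animal leaves 1 Large White animal against 1 Iberian animal of the same sex. The CD74 difference was then -0.31 between the females (without either male) and -1.07 between the males (without either female). On the means of the 4 animals limma called 0 of 7, and with the arrays as replicates it called 4, all lower in Large White (6.57% of all probes, with 6.15% higher).

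Among the 4 animals with tissue in the model, 4 of 7 probes differed (12.5% of all probes): CD74 (limma adjusted p = 0.00056), the first SLA-DMA probe (0.0029), SLA-DMB (0.012) and SLA-DRA (0.025). Without the 3 brain tissues only CD74 passed (limma adjusted p = 0.0026), and without the Large White male 1 probe passed. Between the sexes 0 of 7 were called by the z-score (0.393% of all probes) and 0 by limma, also at an unadjusted p under 0.05. For a breed difference that varied with tissue, limma called 0 of 7 (2.08% of all probes), with adjusted p from 0.17 to 0.80, while 4 passed at an unadjusted p under 0.05. With 1 animal left out, 1 breed holds a single animal, so the calls of those fits are not given. Tissue took 73% of the sum of squares for CD74 and 96.2% for the second SLA-DMA probe, the lowest and highest of the 7, while the animal took 0.3% to 10.4%.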

How the data were processed

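Affymetrix porcine arrays (64) measured total RNA of 16 tissues from 4 pigs, without pooling. The authors generated signals with GCOS and normalised all arrays together by RMA with libaffy, in versions not given in the sources used here, and deposited log2 values (1.78 to 14.47, array medians 5.38 to 5.52). RMA evens out the distributions of the arrays, so a shift shared by all probes of a tissue is lost, and folds are compressed for weak probes. No 2 arrays held identical values. Tissue, breed and sex of each array came from the labels.

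Of 24123 probe sets, 188 controls were left out. The platform annotation, which can be old, gave 1 symbol for 10110 probes, several for 157 and none for 13668, and 9961 were found by gene ID in the RefSeq table, with 0 symbols changed. limma 3.58.1 (R 4.3.3) was fitted on all 23935 probes and 64 arrays with tissue, breed and sex, for 16 contrasts of a tissue with the mean of the other 15, for 7 tissue pairs and for neighbours in the order of levels, with Benjamini-Hochberg adjustment over all probes and a threshold of 0.05. F tests among animals (with tissue) and of breed by tissue were fitted likewise. Breeds and sexes were compared by z-scores, in which the difference of a probe is set against the spread of that difference over all probes, after the study's methods, so that its p measures the place of a probe among probes and not the spread among animals. Other steps used scipy 1.17.1, pandas 2.3.3, numpy 2.4.6 and matplotlib 3.10.9 under Python 3.11.15. The scripts were tested on simulated data. The study's methods name a further logarithm of the values, which was tried as an alternative with the natural logarithm.

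The 16 arrays of an animal were a paired set by design. Their deviations from the tissue means correlated by 0.189 on average, over 0.1 in 385 of 480 pairs of tissues. p-values over arrays rest on the scatter of the arrays of these 4 animals left after the model terms, pooled over the 16 tissues. For breeds, sexes and animals this is not the spread among animals.

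The members, the class II pathway, interferon gamma and MHC class I lists and the cell type markers were chosen with earlier results of these data known. Named were all class II probes, any gene of the pathway list with a probe, and the 10 genes most like the class II profile. Of the interferon gamma and of the MHC class I list, at most 3 genes each were named for their values, from those with the largest range of tissue means. SLA-2 and SLA-3 were named as genes like the class II profile. Tissue marker genes were named where a check failed or an array stood apart, and cell type markers where a list held few genes.

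Alternatives were the animal as a replicate block, leaving out each animal or an array that stood apart, quantile normalisation, the natural logarithm, probes above the median level, a trended and robust prior, limma in place of z-scores and a gap of 0.5 for extreme probes. Leaving out the 3 brain tissues, leaving out the 3 brain arrays of the Iberian male, and the exchange of the SLA-DMA probes were chosen after seeing the data.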

Additional observations from a re-analysis of the deposited data

Results flagged for a closer look

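Among 112 groups of 4 animals (7 class II probes in 16 tissues), 7 had an animal whose gap to its nearest neighbour was too large a part of the range by Dixon's criterion, where chance flags about 1 in 20 groups, or 5.6 of 112. In the olfactory bulb the Iberian male stood high for SLA-DRA (8.89, the others 6.35 to 6.64) and SLA-DQA1 (8.45, the others 6.40 to 6.59). The Iberian female stood high in stomach for SLA-DQA1 (10.21, the others 9.54 to 9.63) and for the first SLA-DMA probe (7.97, the others 6.90 to 7.05), and in ileum for the first SLA-DMA probe (9.35, the others 9.04 to 9.07). The Iberian male was low in diaphragm for the second SLA-DMA probe (7.37, the others 7.65 to 7.69). The Large White female was high in liver for SLA-DMB (7.53, the others 7.17 to 7.19).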

How the results depend on the processing

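The number of arrays, 4 per tissue from the same 4 animals, limited the precision. Of 442 recomputed counts of called class II probes, 385 stayed within 1.5 times the value of the report, and 21 of 37 counts did so under every alternative tried, among them those of higher probes in ileum, blood and liver and of lower probes in ileum, blood, olfactory bulb, hypothalamus and pineal gland. Of 947 recomputed differences or tests of single probes, 885 kept their call, 61 lost it and 1 turned, SLA-DMB in ileum minus blood, which was 0.58 and became -0.0027 after quantile normalisation. The causes of these changes were not tested.

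With the animal as a replicate block (pairing), 2 probes instead of 1 were lower in the olfactory bulb than in the hypothalamus, as with quantile normalisation (2), the natural logarithm (2), probes above the median level (2) and without the 3 brain arrays of the Iberian male (2), and the block moved no other count by over 1.5 times. With 1 animal left out at a time, the sum of higher calls over the 16 tissues (20) ran from 14 to 35, and the counts of higher probes ran from 0 to 1 in neurohypophysis (0), 0 to 4 in thyroid gland (1), 0 to 2 in diaphragm (0), 0 to 1 in Biceps femoris (0), 0 to 5 in back fat (1), 0 to 4 in abdominal fat (3) and 1 to 5 in stomach (2), with the full count in brackets. The highest of each came without the Iberian male. Lower calls over the 7 pairs (8) ran from 2 to 8, and those of adenohypophysis against neurohypophysis (6) from 0 to 6. Probes that differed among animals (4) ran from 1 to 4. With 1 animal left out, 1 breed holds a single animal, so calls between breeds and of breed by tissue are not given for these settings.

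Without the 3 brain arrays of the Iberian male, the sum of higher calls was 41, with 3 in neurohypophysis, 5 in thyroid gland, 3 in diaphragm, 1 in Biceps femoris, 5 in back fat, 6 in abdominal fat and 5 in stomach, and 0 were called between breeds. Quantile normalisation gave 1 lower probe in adrenal medulla, 0 higher in thyroid gland, 1 higher in abdominal fat and 2 higher in ileum than in blood. The natural logarithm gave 1 higher in stomach, 3 lower in adenohypophysis than in neurohypophysis and 0 between breeds. Without olfactory bulb, hypothalamus and pineal gland, 1 probe differed among animals and 0 between breeds. By limma, 4 probes were called between breeds with the arrays as replicates, 4 with the animal as a random replicate block and 0 on the means of the 4 animals. A margin of 0.5 left SLA-DRA, SLA-DQA1, SLA-DQB1 and CD74 extreme in ileum and the second SLA-DMA probe in liver and blood.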
